A study of Mus musculus with 4 samples.

Results

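Immediate-early-rich microglia are the microglia in which the fast response genes Fos, Fosb, Jun, Junb, Egr1, Ier2, Dusp1 and Atf3 took the largest share of the transcripts. They were chosen by that share alone, so their high level of these 8 genes is a description and not a result. A cell entered the ranking if it held 1000 or more UMIs (barcodes that stop an mRNA copied many times from being counted again), 500 or more genes and 1 or more UMIs of the microglia gene Tmem119. Its mitochondrial share could reach 10% and no more. The members were the top 10% of the kept cells by the score (UMIs of the 8 genes over all UMIs), ranked over the 4 libraries together. That gave 822 members of 8220 kept cells, from 8486 deposited barcodes. They were set against the 4110 cells of the bottom 50% of the score, and 3288 cells lay in the middle.

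The brains of C57BL/6 mice were irradiated whole with 8 Gy, given once on postnatal day 21, sham mice stood beside them, and isolated microglia were sequenced cell by cell on the 10x Genomics Chromium. The groups were irradiated at 6 h, sham at 6 h, irradiated at 1 week and sham at 1 week after the procedure, each a single library pooled from 4 mice. The stated question was whether response genes appear together in the same microglia or mark different ones. Whether the cells came from the whole brain, as the sample labels have it, or from the hippocampus, which the design text names, was not settled, and no source used here states the sex. With 1 library a group, irradiated and sham members are described at each time without a test, and members were tested against bottom cells over the 4 libraries.

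Immediate early genes are switched on within minutes of a stimulus without the need for new protein. Fos, Fosb, Jun and Junb encode parts of AP-1, a transcription factor made of paired subunits, and Atf3 encodes a related factor of stressed cells. Egr1 is a zinc-finger factor, Ier2 a small nuclear protein, and Dusp1 a phosphatase that switches off MAP kinases and so limits the response. In microglia, the macrophages that live in the brain, the same genes answer injury and inflammatory signals and are also known to rise while tissue is taken apart into single cells. How much of the pattern arose during isolation was not tested.

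Depth was alike across the libraries, with a median of 3438.5 to 3600 UMIs per kept cell and 5706955 to 9760928 UMIs per library. Within libraries, members were deeper than bottom cells at 6 h, with medians of 4427 and 3504 UMIs in the irradiated library and 4210 and 3560 UMIs in the sham library. At 1 week the medians were 3631 in members and 3580 in bottom cells of the irradiated library, and 3603 in members and 3652 in bottom cells of the sham library. The doublet caller Scrublet marked 44 cells (0.535%), 2 of them members, and no cell was removed for it. Of the barcodes, 37 occurred in 2 or more libraries, and none of these was a member in both.

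The members kept a microglial profile. The 9 microglia markers, among them P2ry12, Csf1r, Cx3cr1 and Fcrls, were all detected in members, and they summed to between 31190 and 41890 CPM (UMIs of a gene scaled to a common total of UMIs per sum) in members, against 40960 to 51840 CPM in bottom cells. Border macrophage markers were at 6.88 to 15.8 CPM in members and 18.2 to 30.7 CPM in bottom cells, and Cd163, Lyve1, F13a1 and Clec10a were at 0 in members. Monocyte markers were at 6.88 to 33.9 CPM in members and 11.5 to 28.5 CPM in bottom cells, with 6 of 8 at 0 in members, among them Ly6c2, Vcan, Fn1 and Chil3. Astrocyte markers spanned 129 to 226 CPM in members and 143 to 256 CPM in bottom cells, and oligodendrocyte markers 85.4 to 115 CPM and 108 to 120 CPM. Neuron markers reached 27.2 CPM in members and 4.50 CPM in bottom cells, while neutrophil, NK cell, oligodendrocyte precursor, pericyte, ependymal and erythroid markers summed to at most 3.77 CPM in members. T cell markers reached 10.3 CPM in members and 5.24 CPM in bottom cells, B cell markers 73.5 and 90.5 CPM, and endothelial markers 30.2 and 35.0 CPM. Cells with 3 or more UMIs of any one such other list made up 18.3% of members and 11.8% of bottom cells in the irradiated library at 6 h. In the other libraries the shares were 6.47% of members and 5.95% of bottom cells (sham at 6 h), 8.86% and 6.22% (irradiated at 1 week), and 3.40% and 4.36% (sham at 1 week).

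The 250 bases before the start sites of Fos and Dusp1 are shown because Fos is the best known of the group and Dusp1 held the single motif match found among the score genes. Both come from the RefSeq promoter table (build GRCm38.p6), read 5′ to 3′ on the gene's strand, and capitals mark a motif match. Fos lies on the plus strand at chr12:85473640-85473889 and Dusp1 on the minus strand at chr17:26508473-26508722.
Fos: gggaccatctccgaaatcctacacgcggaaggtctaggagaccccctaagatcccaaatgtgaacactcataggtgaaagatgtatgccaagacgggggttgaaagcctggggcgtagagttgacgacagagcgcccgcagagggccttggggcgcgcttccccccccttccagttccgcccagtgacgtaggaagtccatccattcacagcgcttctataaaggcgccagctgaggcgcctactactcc
Dusp1: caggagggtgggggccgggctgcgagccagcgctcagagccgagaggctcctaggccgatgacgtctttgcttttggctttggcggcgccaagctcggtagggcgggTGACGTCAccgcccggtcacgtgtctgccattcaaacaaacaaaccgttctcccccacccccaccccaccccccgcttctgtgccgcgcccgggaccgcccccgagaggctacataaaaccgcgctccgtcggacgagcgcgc
Windows from 250 bases before to 50 bases after the start were searched on both strands for the serum response motif known as the CArG box, for the cAMP response element TGACGTCA and for the AP-1 motifs TGACTCA and TGAGTCA, which are reverse complements of each other. Of the 6 score genes with an entry (Fos, Fosb, Jun, Junb, Dusp1 and Atf3), only Dusp1 held a match, TGACGTCA beginning at position -143. Over all 32851 promoters in the table the CArG box stood in 1.63%, TGACGTCA in 1.79% and the AP-1 motifs in 5.20%. A missing match says only that those letters are not in this window.

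The score had a median of 205.2 UMIs per 10000 in members, 63.21 in the middle cells and 24.59 in bottom cells, and the highest member reached 601.3. The lowest member stood at 120.1 and the highest cell outside at 120.0 per 10000, with 109 members less than 10% above the limit and 148 other cells less than 10% below it. The members are the upper range of this score, and whether they form a separate group was not tested. Above the limit the counts were not even in 2 libraries. The irradiated library at 6 h had 6 cells from 180 to 200 and 18 from 240 to 260 per 10000, and the sham library at 1 week 9 from 200 to 220 and 18 from 260 to 280. From 180 to 200 and from 240 to 260, the sham library at 6 h had 16 and 14 cells and the irradiated library at 1 week 15 and 11. These bins were picked after their counts were seen and hold few cells. Members had UMIs of a median of 7 of the 8 genes (lowest 3), or 5 with every cell thinned to 1000 UMIs. Bottom cells had a median of 3 of the 8, or 1 after thinning. Among the 8 genes, Jun had the most UMIs in 43.9% of members, Fos in 27.4% and Junb in 27.1%.

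Members made up a larger share of the cells at 1 week than at 6 h. At 6 h they were 6.06% of irradiated cells (115 of 1898, 95% interval 5.03 to 7.23%) and 7.66% of sham cells (201 of 2623, 6.67 to 8.75%). At 1 week they were 12.7% of irradiated cells (271 of 2138, 11.3 to 14.2%) and 15.1% of sham cells (235 of 1561, 13.3 to 16.9%). At this limit the intervals of irradiated and sham overlapped at each time, and those of the 2 times did not. Both statements depended on the limit. With the top 20% as members, irradiated (10.2%, 8.89 to 11.7%) and sham (13.99%, 12.7 to 15.4%) did not overlap at 6 h. With the top 5%, sham at 6 h (3.77 to 5.405%) and irradiated at 1 week (4.85 to 6.88%) overlapped. These are exact Clopper-Pearson intervals that cover counting error only. Time, age of the mice and library cannot be told apart with 1 library a group. Thinned to 1000 UMIs, the shares were 5.85% of irradiated and 7.78% of sham cells at 6 h, and 12.8% of irradiated and 14.9% of sham cells at 1 week.

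**Figure D1:**
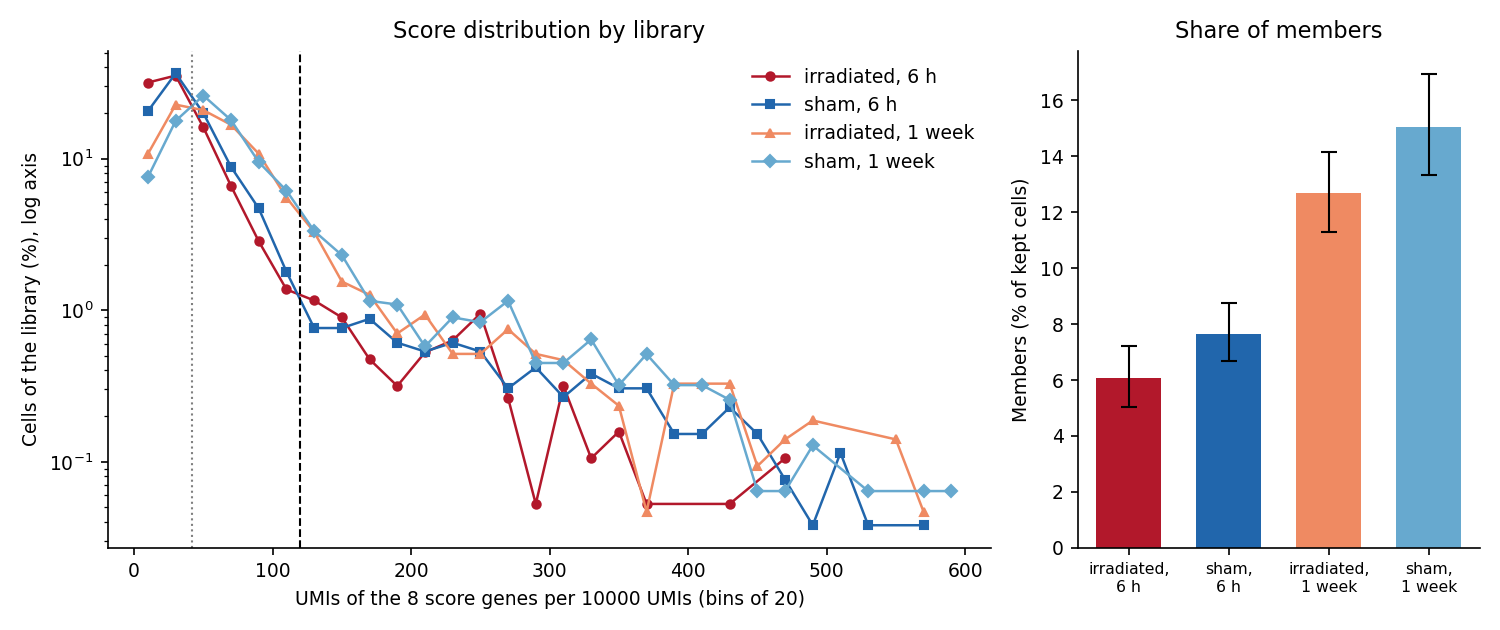
Left, share of each library's cells (percent, log axis) by score in UMIs of the 8 genes per 10000 UMIs, in bins of 20 with empty bins left out; the dashed line marks the lowest member (120.1) and the dotted line the upper limit of the bottom 50% (42.09). Right, members as a percent of kept cells with exact 95% intervals of counting error, from 6.06% in the irradiated library at 6 h to 15.1% in the sham library at 1 week.

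The 8 score genes differed in how evenly the libraries shared them. Where 4 values follow each other below, they stand for irradiated at 6 h, sham at 6 h, irradiated at 1 week and sham at 1 week, in that order. Fos (chromosome 12, 85473890 to 85477273, coordinates from GENCODE vM21 on GRCm38) had 4903, 6054, 5189 and 5187 CPM in members and 223, 213, 284 and 275 CPM in bottom cells. Jun (chromosome 4, 95049034 to 95052222) had 4712, 7043, 6801 and 6451 CPM in members and 1106, 1516, 1457 and 1632 CPM in bottom cells. Jun was thus well expressed even in the cells with the lowest score. Junb (chromosome 8, 84974484 to 84978718) had 4213, 6295, 6074 and 5929 CPM in members and 437, 482, 513 and 526 CPM in bottom cells. The irradiated library at 6 h was the lowest of the 4 for Fos, Jun, Junb and Fosb in members.

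For Dusp1 and Atf3 the irradiated library at 6 h was instead the highest in members. Over all kept cells this held for Atf3 (276, 92.8, 92.1 and 205 CPM) but not for Dusp1 (275, 230, 294 and 329 CPM). Dusp1 (chromosome 17, 26505590 to 26562128) had 2193, 1629, 1103 and 1156 CPM in members and 68.95, 52.4, 79.6 and 59.2 CPM in bottom cells. Atf3 (chromosome 1, 191170296 to 191218039) had 1475, 791, 540 and 1016 CPM in members and 127, 15.1, 16.8 and 40.8 CPM in bottom cells, so its bottom cells of the irradiated library at 6 h also stood above the others. Egr1 (chromosome 18, 34859823 to 34864984) varied little between members of the libraries, at 1252 to 1438 CPM against 74.0 to 114.6 CPM in bottom cells. Ier2 (chromosome 8, 84661331 to 84662852) was at 1698 to 2191 CPM in members and 61.7 to 102.5 CPM in bottom cells, and Fosb (chromosome 7, 19302696 to 19310051) at 113 to 219 CPM and 8.18 to 27.6 CPM.

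**Figure D2:**
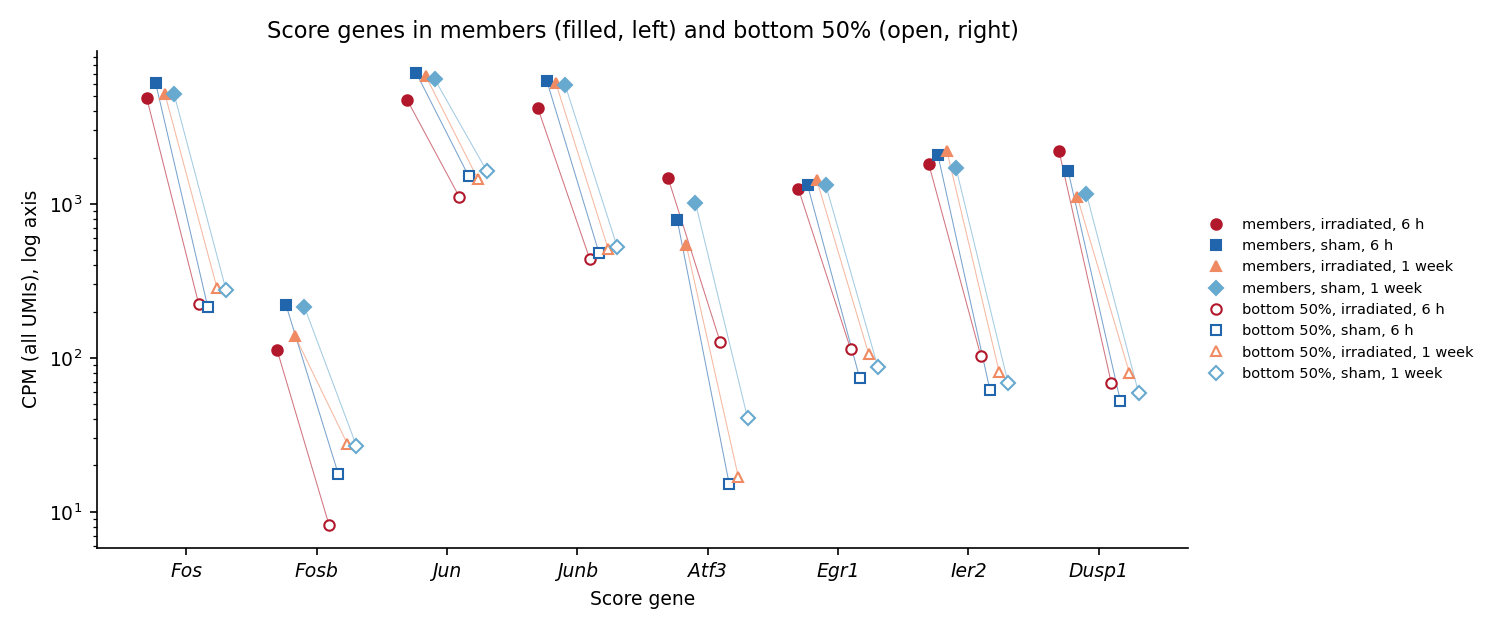
CPM of each score gene on a log axis, in members (filled, left) and bottom 50% (open, right), 1 line and marker per library; the rule used these genes. All 8 genes are higher in members of every library, and Jun keeps over 1000 CPM in bottom cells.

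With each gene left out of its own score in turn, the other 7 genes still picked cells that were rich in it. The top 10% then exceeded the bottom 50% for Atf3 by 8.79-, 45.6-, 24.6- and 17.98-fold, and for Dusp1 by 23.9-, 26.7-, 11.3- and 12.2-fold. Ier2 stood 13.4- to 26.5-fold higher, Fos 10.2- to 19.8-fold, Egr1 8.64- to 14.7-fold, Fosb 4.08- to 13.8-fold and Junb 6.504- to 9.88-fold. Jun had the smallest excess, at 3.38-, 3.61-, 3.05- and 2.39-fold. These folds describe how the 8 genes go together from cell to cell and carry no test.

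The main comparison asked which other genes differed between members and bottom cells. UMIs were summed per class and library, and 8150 genes outside the score were tested with edgeR's quasi-likelihood test with library as a block. At an adjusted p of 0.05, 467 genes (5.73%) were higher and 206 (2.53%) lower in members, and the median log2 fold over all tested genes was -0.0014. The libraries of the classes did not overlap for 354 genes (4.34%) that were higher and 248 (3.04%) that were lower in members. Every library is another condition, and the test fits 1 mean difference over the 4 libraries. A call therefore does not mean that each library went the same way. Without the sham library at 6 h the calls were 298 higher and 92 lower, without the irradiated library at 1 week 317 and 133, and without the sham library at 1 week 311 and 105. Levels of genes outside the score are given below in CPM scaled by the TMM factors of the fit.

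The 15 named genes of largest fold were led by Nfkbiz. Nfkbiz, which encodes the nuclear regulator IkB-zeta (chromosome 16, 55811375 to 55838899), had 206.5, 238.5, 271.7 and 262.2 CPM in members and 16.2, 10.8, 13.9 and 11.99 CPM in bottom cells. Its log2 fold was 4.19 (SE 0.12, adjusted p = 4.4e-18 by edgeR), and the 4 libraries of the classes lay far apart. Nfkbia, the classical inhibitor that NF-kB induces to stop itself (chromosome 12, 55489410 to 55492647), had 1229, 1281, 1634 and 1402 CPM in members and 239, 162, 152.5 and 131 CPM in bottom cells, a log2 fold of 3.02 (SE 0.11). Nfkbid, a further member of that inhibitor family, rose by 2.87 (SE 0.17). Tnf, the inflammatory cytokine (chromosome 17, 35199381 to 35202007), had 255, 71.8, 232 and 159 CPM in members and 30.4, 4.98, 20.7 and 12.6 CPM in bottom cells, a log2 fold of 3.39 (SE 0.12). Both classes had more Tnf in the irradiated library than in the sham library of the same time.

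Klf2, a Krüppel-like transcription factor known to restrain inflammation in macrophages (chromosome 8, 72319033 to 72321656), had 2244, 2889, 1554 and 2619 CPM in members and 102, 223, 153 and 400.2 CPM in bottom cells, a log2 fold of 3.54 (SE 0.15). Klf4, a related factor (chromosome 4, 55527143 to 55532466), had 269, 212, 92.9 and 274 CPM in members and 25.5, 21.4, 25.8 and 34.7 CPM in bottom cells, a log2 fold of 2.98 (SE 0.15). Zfp36, whose product degrades cytokine mRNAs (chromosome 7, 28376784 to 28380253), had 1949, 2303, 2399 and 2556 CPM in members and 289, 288, 392 and 432 CPM in bottom cells, a log2 fold of 2.74 (SE 0.071). Socs3, a feedback inhibitor of cytokine receptors (chromosome 11, 117966079 to 117970047), had 553, 1254, 1187 and 1493 CPM in members and 95.9, 108, 117 and 134.5 CPM in bottom cells, a log2 fold of 3.25 (SE 0.11). Members of the irradiated library at 6 h were the lowest of the 4 for both Zfp36 and Socs3.

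The remaining genes among the 15 rose in members as well. Ier3, a survival gene, was at 401 to 939.6 CPM in members and 20.1 to 57.7 CPM in bottom cells, a log2 fold of 3.87 (SE 0.16). Gadd45b, a stress gene, rose by 3.66 (SE 0.25), Egr2, a zinc-finger factor, by 3.60 (SE 0.23) and Csrnp1, a nuclear factor, by 3.29 (SE 0.18) on the log2 scale. Ppp1r15a, which encodes the phosphatase subunit that restores translation after stress, was at 365 to 464 CPM in members and 51.8 to 75.1 CPM in bottom cells, a log2 fold of 2.86 (SE 0.080). The chemokine genes Ccl2 and Ccl4 rose by 2.93 (SE 0.21) and 2.67 (SE 0.15), and for both the libraries of the classes overlapped. In the middle cells each of the 15 genes lay between members and bottom cells in all 4 libraries.

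**Figure D3:**
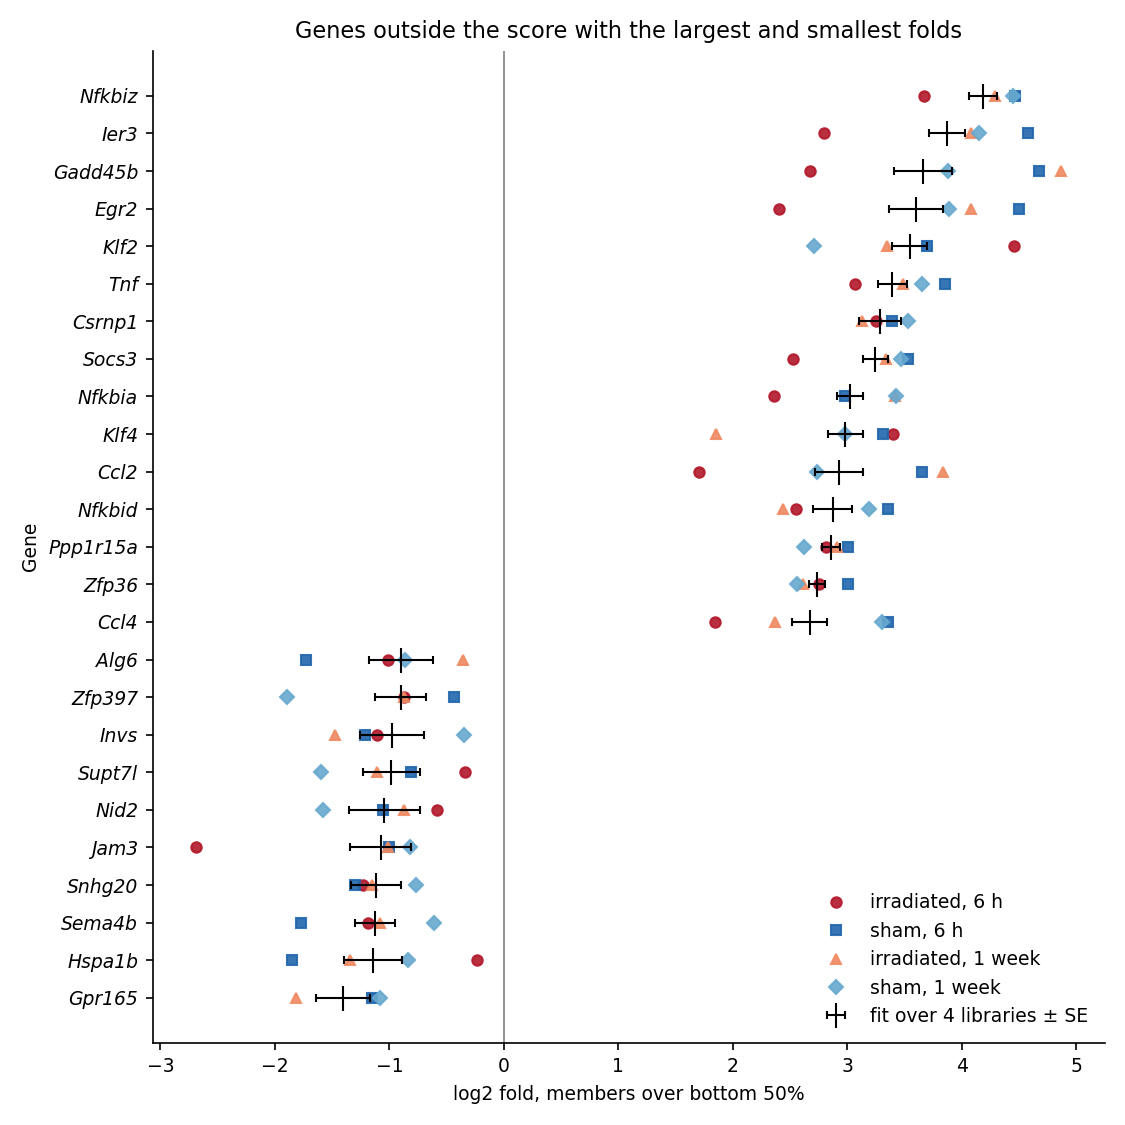
Log2 fold of members over bottom 50% for the 15 highest and 10 lowest named genes, 1 marker per library and the fitted value with its SE in black; Gpr165 had 0 CPM in members of the irradiated library at 6 h and has no marker there. Nfkbiz stands at 4.19 and Gpr165 at -1.40.

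Fast response genes outside the score moved as a broad group. Of 46 listed genes 33 could be tested, and 29 rose, 0 fell and the median log2 fold was 1.28, beside -0.0014 over all genes tested. At an unadjusted p of 0.05 none fell either, and DESeq2 called 27 higher and 0 lower. Genes named from here on that are neither among the 25 of the rule nor the 3 of highest mean CPM in their list were picked after their values were seen. Btg2, an antiproliferative gene that is also a p53 target (chromosome 1, 134075170 to 134079120), had 4517, 3948, 4621 and 4201 CPM in members and 805.5, 569, 987 and 871 CPM in bottom cells, a log2 fold of 2.45 (SE 0.075). Jund, the AP-1 subunit that is thought of as constitutive (chromosome 8, 70698949 to 70700616), had 3541, 3666, 2127 and 3483 CPM in members and 903, 825, 699.6 and 1172 CPM in bottom cells, a log2 fold of 1.83 (SE 0.077). Rhob, a small GTPase gene (chromosome 12, 8497661 to 8500009), rose by 1.23 (SE 0.063). Nr4a1, an orphan nuclear receptor gene with few UMIs, was at 22.1 to 54.6 CPM in members and 0.995 to 2.52 CPM in bottom cells, a log2 fold of 4.66 (SE 0.29). It lay above the 15 genes but under their minimum of 200 UMIs. Crem, Nfil3, Myc and Fosl2 did not pass the test, with log2 folds of -0.28, 0.49, 0.59 and 0.76.

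Of 8 tested Krüppel-like factors of 12 listed, 5 rose with a median log2 fold of 1.26, namely Klf2, Klf4, Klf6 (2.37, SE 0.091), Klf10 (1.75, SE 0.15) and Klf13 (0.53, SE 0.10). Klf6 had 1151, 1011, 807 and 971 CPM in members and 230.0, 139.5, 186 and 222 CPM in bottom cells. Klf3 had a log2 fold of 0.020 and Klf7 of 0.027, and both missed the test. Without the filter on low counts all 12 were tested, with the same number higher and a median of 0.61. Of 7 tested MAP kinase feedback genes of 15 listed, 4 rose, with a median of 0.52, and without the filter 6 of 14 rose, with a median of 0.63. Among them Dusp2, a nuclear phosphatase gene with few UMIs, had 24.1, 39.4, 15.3 and 13.4 CPM in members and 3.70, 0.332, 0.678 and 1.89 CPM in bottom cells. Its log2 fold was 4.06 (SE 0.43), and it lay under the minimum of 200 UMIs of the named genes. Dusp6, a cytoplasmic ERK phosphatase gene (chromosome 10, 99263231 to 99267489), rose by 0.52 (SE 0.077), whereas Dusp7 and Spred1 missed the test with log2 folds of -0.099 and 0.21.

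Inflammatory and NF-kB genes were the next broad group, with 24 of 32 tested genes (of 40 listed) higher, 0 lower and a median log2 fold of 0.89. At an unadjusted p of 0.05 the list again held no lower gene by edgeR, and DESeq2 called 20 higher and 0 lower. The chemokine gene Ccl3 (chromosome 11, 83647844 to 83649355) had 4263, 1151, 1094 and 2085 CPM in members and 924.5, 142.5, 254 and 233 CPM in bottom cells, a log2 fold of 2.60 (SE 0.12). Its neighbour Ccl4 (chromosome 11, 83662584 to 83664683) had 5971, 1477, 1812 and 2506 CPM in members and 1661, 144, 351 and 254 CPM in bottom cells. Both genes were highest in the irradiated library at 6 h in both classes. The monocyte chemokine gene Ccl2 (chromosome 11, 82035571 to 82037453) had 676, 362, 973 and 206 CPM in members and 208, 28.9, 68.1 and 30.9 CPM in bottom cells. Ccl12 (chromosome 11, 82101845 to 82103400), of the same chemokine group, rose by 1.15 (SE 0.070). In bottom cells of the sham library at 1 week, 49.5% of its UMIs came from 1 cell.

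Cytokines, NF-kB subunits and inhibitors of the list gave the following values. Il1a, the interleukin 1 alpha gene, had 88.2, 142, 192 and 178 CPM in members and 33.5, 38.5, 76.6 and 56.2 CPM in bottom cells, a log2 fold of 1.57 (SE 0.11). Il1b was too sparse for the test, at 5.79 to 25.5 CPM in members and 0.631 to 5.13 CPM in bottom cells. Of the subunit genes, Rel (0.95, SE 0.11), Relb (0.99, SE 0.14) and Nfkb2 (0.85, SE 0.21) rose. Rela and Nfkb1, which form the common dimer, missed the test with log2 folds of -0.13 (SE 0.13) and -0.12 (SE 0.099). Tnfaip3, the gene of the inhibitor A20, rose by 2.21 (SE 0.23). Icam1, an adhesion gene, rose by 0.88 (SE 0.081), and Cd14 and Tlr2, receptors for bacterial products, rose by 0.48 and 0.31.

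**Figure D4:**
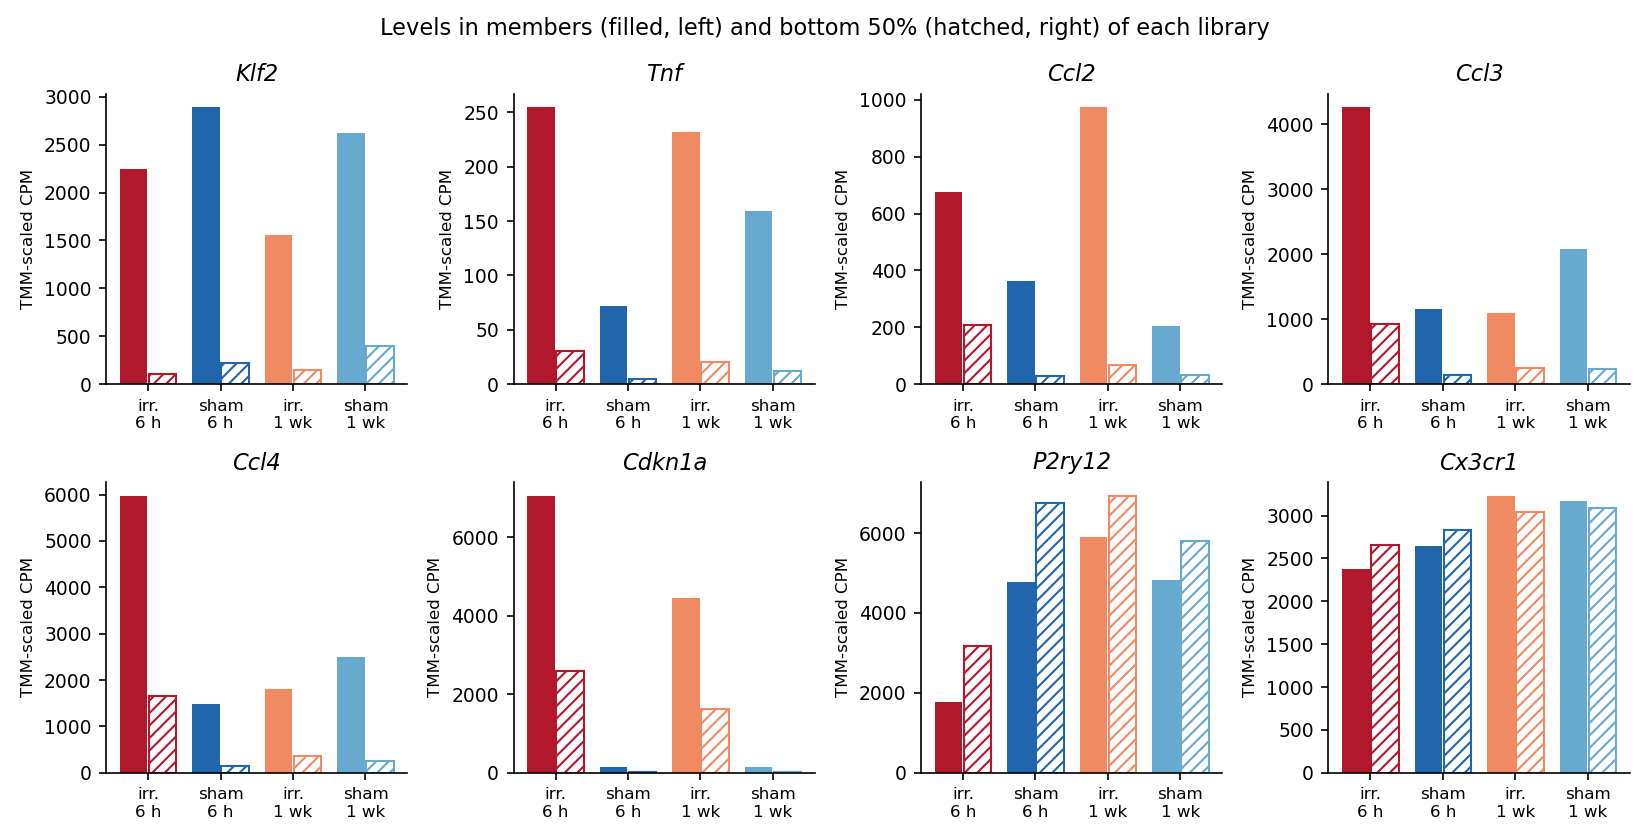
TMM-scaled CPM of 8 genes per library, in members (filled, left bar) and bottom 50% (hatched, right bar); each panel has its own axis from 0. Klf2, Tnf, Ccl2, Ccl3, Ccl4 and Cdkn1a are higher in members of every library, P2ry12 is lower in members of every library, and Cx3cr1 is lower in 2 libraries and higher in 2.

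Cells rich in chemokine transcripts and the members were partly the same cells. With Ccl3 plus Ccl4 ranked in the same manner (top 10% over the 4 libraries), 220 cells were in both groups, or 26.8% of each. Per library the shared cells made up 55.7% of members at 6 h after irradiation and 17.9% at 6 h after sham, and 22.5% of irradiated and 25.1% of sham members at 1 week. Of bottom cells, 16.1, 1.203, 4.02 and 3.67% were rich in these chemokines. The share of cells rich in these chemokines was thus larger in members than in bottom cells of every library. Most members were outside that group, except in the irradiated library at 6 h. Seen from the other side, 15.6, 42.9, 35.5 and 37.8% of the chemokine-rich cells were members. Of the 410 in the irradiated library at 6 h, 64 were members and 213 bottom cells.

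Heat shock and stress genes rose in part. Of 24 heat shock genes, 9 rose and 1 fell, with a median log2 fold of 0.19. Hspa8, the constitutive Hsp70 (chromosome 9, 40800984 to 40810087), had 2272, 2873, 2393 and 2400 CPM in members and 1700, 1737, 1720 and 1499 CPM in bottom cells, a log2 fold of 0.58 (SE 0.062). Dnajb1, an Hsp40 co-chaperone gene, had 225, 502.5, 382 and 381 CPM in members and 80.3, 108, 87.5 and 106 CPM in bottom cells, a log2 fold of 1.97 (SE 0.093). Hspa5 (0.52, SE 0.072) and Hsp90ab1 (0.45, SE 0.061) rose as well. The stress-induced Hsp70 genes did not follow: Hspa1a was at 0.28 (SE 0.15, adjusted p = 0.30 by edgeR) and Hspa1b fell by 1.14 (SE 0.25). Hspa1a and Hspa1b are near-identical copies, so their separate values are uncertain.

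The integrated stress response list had 6 of 16 tested genes (of 22 listed) higher and 1 lower, with a median of 0.13. Beside Ppp1r15a, the transcription factor genes Cebpb (1.16, SE 0.092), Ddit3 (1.16, SE 0.11) and Atf4 (1.14, SE 0.077) and the translation initiation gene Eif1 (0.62, SE 0.061) rose. Ddit4, an inhibitor of mTOR signalling, fell by 0.80 (SE 0.12), and the chaperone gene Calr missed the test at -0.096. Cebpb (chromosome 2, 167688915 to 167690418) had 812, 527, 81.7 and 167.5 CPM in members and 451, 191, 38.98 and 68.8 CPM in bottom cells. Its members at 1 week lay below its bottom cells at 6 h. TGF-beta signalling genes had 4 of 13 tested (of 18 listed) higher, with a median of 0.025. Tgfbr1, a receptor gene, missed the test at -0.17 (SE 0.070). Among them were Id2 (1.94, SE 0.079), an inhibitor of transcription factors, and Tgif1 (1.21, SE 0.10) and Skil (1.103, SE 0.078), a pair of repressors of the pathway.

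Of p53 targets, 8 of 27 tested (of 38 listed) rose, with a median log2 fold of 0.18. None fell by edgeR's adjusted p or by DESeq2, and 2 were lower at an unadjusted p of 0.05. Cdkn1a, the cell cycle inhibitor p21 (chromosome 17, 29090976 to 29100727), had 7048, 154, 4450 and 139.6 CPM in members and 2579, 29.8, 1611 and 28.4 CPM in bottom cells, a log2 fold of 1.68 (SE 0.10). Its members exceeded its bottom cells in irradiated and in sham libraries alike. Bax, a cell death gene, and Rps27l, a ribosomal protein-like gene, missed the test with log2 folds of -0.060 (SE 0.072) and -0.075 (SE 0.072). Gdf15, a stress cytokine gene, rose by 2.45 (SE 0.12), with 1167, 12.7, 29.6 and 13.4 CPM in members and 209, 1.16, 8.47 and 1.89 CPM in bottom cells. In members of the sham library at 6 h, all 11 of its UMIs came from 1 cell.

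Genes of resting microglia were slightly lower in members. Of 38 homeostatic genes, all tested, 18 fell and 0 rose, with a median log2 fold of -0.18. At an unadjusted p of 0.05, 24 were lower and 2 higher by edgeR, and DESeq2 called 14 lower and 0 higher. P2ry12, the purinergic receptor that guides microglial processes (chromosome 3, 59216272 to 59262871), had 1774, 4775, 5897 and 4823 CPM in members and 3185, 6753, 6933 and 5814 CPM in bottom cells, a log2 fold of -0.45 (SE 0.073). It was lower in members of each library, while the classes overlapped across libraries. Slc2a5, a fructose transporter gene (-0.45, SE 0.069), Fcrls (-0.36, SE 0.063), Cst3, the cystatin C gene (-0.33, SE 0.051), and C1qa, a complement gene (-0.19, SE 0.053), fell.

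Further identity genes missed the test, namely Cx3cr1, the fractalkine receptor gene (-0.033, SE 0.058), Csf1r, the survival receptor gene (-0.11, SE 0.056), Sall1 (-0.025, SE 0.10) and Irf8 (0.19, SE 0.063). Without the sham library at 6 h 10 homeostatic genes fell, and without the library block 0 did, with a median of -0.17 both times. Per cell, homeostatic UMIs had a median of 1359 per 10000 in members, 1608 in the middle cells and 1684 in bottom cells. Inflammatory and NF-kB UMIs had medians of 60.9, 29.4 and 26.1 per 10000 in the same 3 classes.

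**Figure D5:**
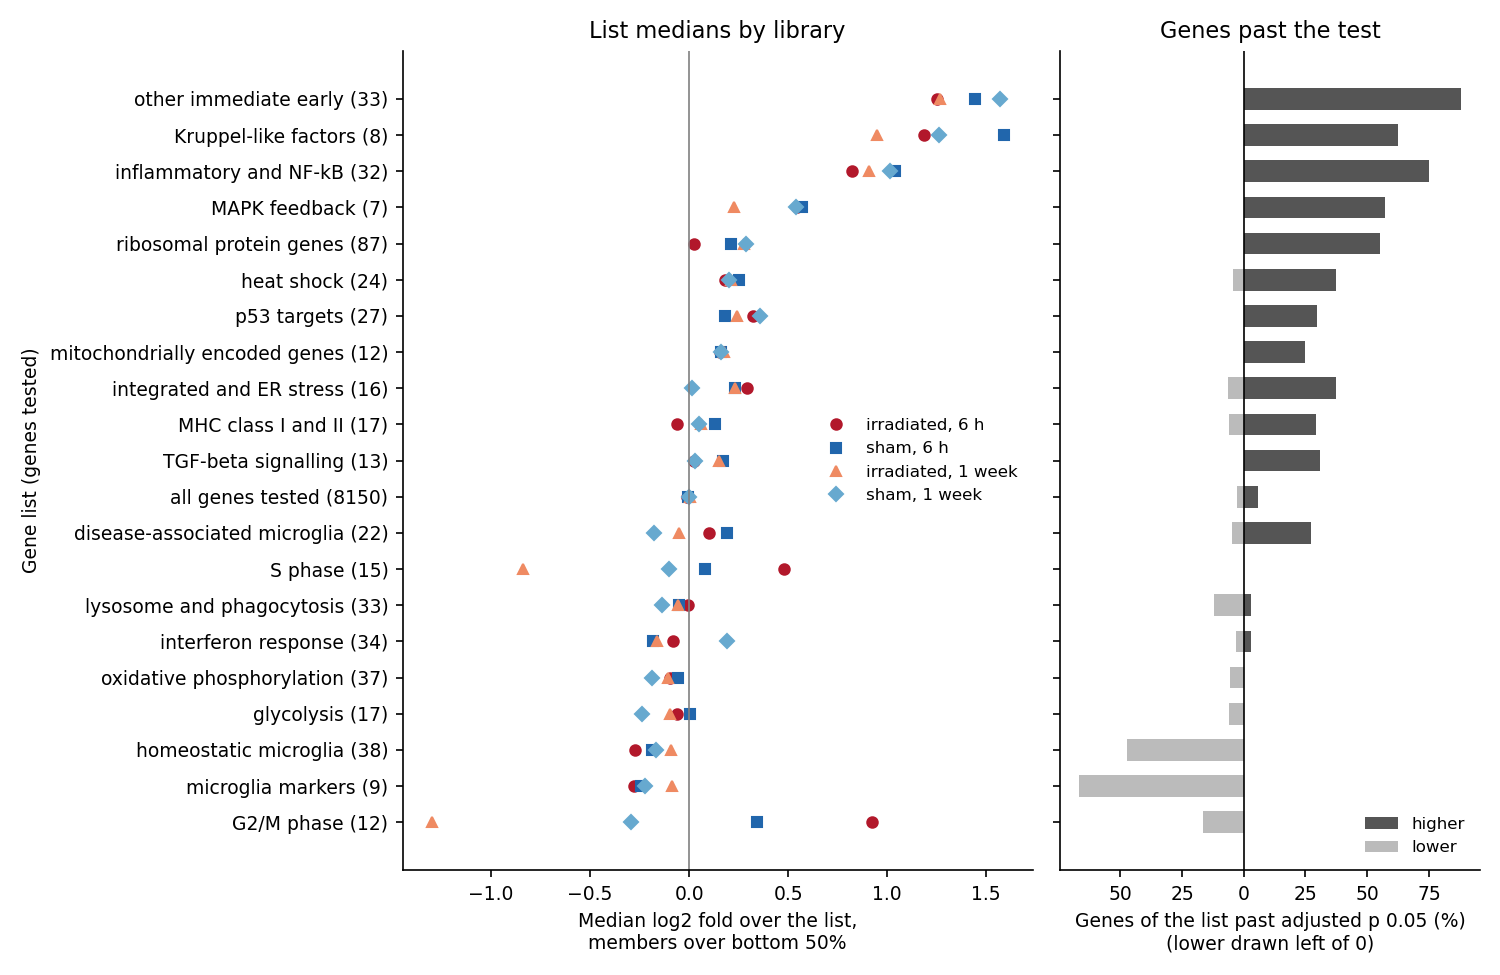
Left, median log2 fold of each gene list in members over bottom 50%, 1 marker per library, with the number of genes tested in brackets. Right, percent of the tested genes of each list higher (dark, right of 0) or lower (light, left of 0) in members at an adjusted p of 0.05; 29 of 33 other immediate early genes are higher and 18 of 38 homeostatic genes lower.

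Disease-associated microglia genes had 6 of 22 tested higher and 1 lower, with a median of -0.025. The higher count was 3 by DESeq2 and 9 of 27 tested without the sham library at 1 week. Ftl1, the ferritin light chain gene, rose by 0.81 (SE 0.055) and Apoe, the lipid carrier gene, by 0.54 (SE 0.090), with 3818, 3535, 1913 and 1312 CPM in members and 2188, 2488, 1067 and 1329 CPM in bottom cells. The cathepsin gene Ctsd missed the test at -0.10 (SE 0.054). Of 34 tested interferon response genes 1 rose, the transcription factor gene Irf1 (1.102, SE 0.13), and 1 fell, Oasl2 (-0.84, SE 0.23), with a median of -0.10. Each share was 2.94%, beside 5.73% higher and 2.53% lower over all genes tested. Oasl2 was no longer called without the irradiated library at 1 week or by DESeq2. None of 15 tested S phase genes was called by edgeR or by DESeq2, and at an unadjusted p of 0.05 edgeR had 1 higher and 3 lower. Without the irradiated library at 6 h 3 fell, and without the irradiated library at 1 week 1 rose and the median was 0.21, against -0.038 with all libraries. In the G2/M list 2 of 12 tested fell, the histone gene H2afz (-0.35, SE 0.089) and the tubulin gene Tubb5 (-0.22, SE 0.069). DESeq2 called neither. The median of this list was -0.29, with 0.92, 0.34, -1.30 and -0.29 in the 4 libraries. It was 0.33 without the irradiated library at 1 week, where no gene fell and 1 rose. Without the irradiated library at 6 h 4 of 14 fell.

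Ribosomal protein genes shifted slightly, with 48 of 87 tested higher and a median log2 fold of 0.21. This count was not stable, at 69 of 86 without the irradiated library at 6 h and 6 without the sham library at 6 h. It was 4 without the irradiated library at 1 week, 2 without the sham library at 1 week and 21 by DESeq2. Their median by library was 0.026, 0.21, 0.28 and 0.29. Lysosomal genes had 1 of 33 higher and 4 lower (median -0.056), and the lower count was 0 without the sham library at 6 h, 1 without the irradiated library at 1 week, 0 without the sham library at 1 week and 2 by DESeq2. Of nuclear respiratory chain genes 2 of 37 fell (5.405%, median -0.11), and 1 by DESeq2 or without any one library other than sham at 6 h. Of glycolysis genes 1 of 17 fell (5.88%, median -0.11), and 0 by DESeq2 or without either sham library. Over all genes tested 2.53% fell, and neither small count is read as a shift of its list. Mitochondrially encoded genes had 3 of 12 higher, with a median of 0.16. Only 1 was higher without the sham library at 6 h, without the irradiated library at 1 week or by DESeq2. The count was 4 without the irradiated library at 6 h and 2 without the sham library at 1 week.

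The antigen presentation list had 5 of 17 tested genes higher and 1 lower, with a median of 0.068. H2-K1 (0.50, SE 0.078) and H2-D1 (0.32, SE 0.068) are class I genes with near-identical relatives, so their single values are uncertain. The class II genes H2-Ab1 (2.44, SE 0.43) and Cd74 (1.22, SE 0.23) rested on single cells. In members of the irradiated library at 6 h, 1 cell held 131 of 148 H2-Ab1 UMIs and 1 cell held 424 of 627 Cd74 UMIs. Without that library, or by DESeq2, 3 genes of the list were higher.

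The 10 lowest named genes had modest folds and low levels. Gpr165, an orphan receptor gene (chromosome X, 96713441 to 96719388), had 0, 23.2, 8.17 and 16.99 CPM in members and 15.2, 51.4, 28.8 and 35.98 CPM in bottom cells, a log2 fold of -1.40 (SE 0.24). Sema4b, a semaphorin gene (chromosome 7, 80186841 to 80226527), had 14.0, 16.2, 25.5 and 35.2 CPM in members and 32.0, 55.4, 53.9 and 53.6 CPM in bottom cells, a log2 fold of -1.12 (SE 0.17). Snhg20, a non-coding host gene of a small nucleolar RNA, fell by 1.12 (SE 0.22) and Jam3, a junction protein gene, by 1.08 (SE 0.27). Nid2, Supt7l, Invs, Zfp397 and Alg6 had log2 folds of -1.04, -0.98, -0.98, -0.90 and -0.90. Unlike the 15 highest genes, these 10 lay between the classes in the middle cells in 28 of 40 values. With DESeq2, Hspa1b, Jam3, Nid2, Supt7l, Invs, Zfp397 and Alg6 missed the threshold.

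Irradiated and sham members were set side by side at each time as a description, counting genes with 50 or more UMIs over both and past 1.5-fold. At 6 h, 466 of 3905 genes (11.9%) were higher and 406 (10.4%) lower in irradiated members, and at 1 week 226 of 4674 (4.84%) higher and 218 (4.66%) lower. Targets of p53 had 16 of 19 measured higher and 1 lower at 6 h (median log2 fold 2.59) and 11 of 18 higher and 0 lower at 1 week (median 1.26). In bottom cells 27 of 32 measured were higher and 1 lower at 6 h (median 2.15). At 1 week 19 of 21 were higher and 0 lower in bottom cells (median 1.34). The genes measured differed between the classes, so these medians are of unlike sets. Over all measured genes of bottom cells, 10% were higher and 7.03% lower in the irradiated library at 6 h, and 5.41% higher and 3.6% lower at 1 week.

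Phlda3, an inhibitor of Akt signalling (chromosome 1, 135766119 to 135769136), had 238 UMIs in irradiated and 1 in sham members at 6 h, a log2 fold of 8.69 (95% interval of counting error 6.20 to 14.0). At 1 week it had 127 and 0 UMIs, 35.6-fold higher with the sham count put at a floor of 3 per library. The lower limit of its log2 interval was 4.835. Cdkn1a was at a log2 fold of 5.52 (5.27 to 5.78) at 6 h and 4.99 (4.73 to 5.27) at 1 week. Gdf15 was at 6.52 (5.67 to 7.53) and the polo-like kinase gene Plk2 at 5.88 (3.97 to 8.95) at 6 h. The class II gene H2-Aa was 68.7-fold higher at 6 h with the same floor, and 117 of its 119 UMIs were in 1 cell. The lowest at 6 h were Hspa1a (-2.54, interval -3.06 to -2.07), Kif21b (-2.46), Ulk2 (-2.35), Trim35 (-2.09) and Galnt12 (-1.98).

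At 1 week Ccl7 (4.02, 2.40 to 6.34), Gm26870 (3.40, 2.47 to 4.49) and Ccl2 (2.24, 2.00 to 2.48) followed among the highest. The lowest were Klf4 (-1.56, -1.93 to -1.20), Casp4 (-1.56, -2.36 to -0.80), Polr2l (-1.33), Cdk2ap1 (-1.27) and Itpk1 (-1.25). The fast response list outside the score had 5 of 26 measured genes higher and 4 lower at 6 h (median 0.074) and 0 higher and 3 lower at 1 week (median -0.063). In bottom cells at 6 h, 11 of 33 were higher and 3 lower (median 0.36). Inflammatory and NF-kB genes had 11 of 27 higher and 4 lower in irradiated members at 6 h (median 0.42), and homeostatic genes 0 of 37 higher and 10 lower (median -0.24). Bottom cells at 6 h had 15 of 32 inflammatory and NF-kB genes higher and 0 lower (median 0.52). Their homeostatic genes had 0 of 38 higher and 7 lower (median -0.20), so neither shift was particular to members. These folds have no replicate check.

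Whether the excess of members over bottom cells itself differed between kinds of library was tested with an extra term of the edgeR fit, added after the data were seen, with 2 libraries an arm. Of 8150 genes, 4 (0.0491%) differed between irradiated and sham libraries, among them Ccl3 and Ccl4, whose excess was smaller in irradiated libraries (log2 differences of -0.93, SE 0.13, and -1.24, SE 0.16). Between 1 week and 6 h libraries 7 (0.0859%) differed, among them Klf2, whose excess was smaller at 1 week (log2 difference -1.02, SE 0.18).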

How the data were processed

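Single-cell libraries of microglia from irradiated and sham mice were read as UMI counts per gene and barcode, raw counts as deposited by the authors. Per the submitters' processing notes, Cell Ranger 2.0 and the mm10 build were used. The deposited matrices hold 8486 barcodes, more than the cell number in the design text. Of 27998 gene identifiers, 27645 matched GENCODE vM21. Cells were filtered and ranked as the report states, with Python 3.11.15, numpy 2.4.6, scipy 1.17.1 and scanpy 1.11.5 (Scrublet, no cell removed). UMIs were summed per class and library into 8 sums and tested with edgeR 4.0.16 in R 4.3.3 (quasi-likelihood, TMM, filterByExpr, library as block, Benjamini-Hochberg, 0.05). The 8 score genes and Tmem119 were left out of the test and of the library sizes. DESeq2 1.42.0 was an alternative. Score genes are given as plain CPM.

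Named genes outside the score passed the threshold, went the same way in 4 of 4 libraries and had 200 or more UMIs over all sums, and the 15 with the largest and 10 with the smallest fold were taken, leaving out ribosomal, mitochondrial and clone-named genes. For each list the 3 genes of highest mean CPM were candidates for naming (some are not reported here), and for irradiated against sham members the 5 largest and 5 smallest folds at each time. Members and lists were chosen with earlier results of these data known. Intervals are exact 95% intervals that cover counting error only, and folds against 0 used a floor of 3 counts. On simulated counts of 8003 genes, the test called 90.4% of 94 genes changed 2-fold, 50.5% of 99 genes changed 1.5-fold and 7 of 7810 unchanged genes. The simulation gave all genes the same spread and a changed gene the same fold in each library. These rates may therefore not hold for the real counts. Of 599 symbols in 17 pathway and 15 marker lists, 5 were not matched. p-values measure how the difference between members and bottom cells varied over 4 libraries of pooled mice, not the spread between mice.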

Additional observations from a re-analysis of the deposited data

Results flagged for a closer look

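For 11 genes the excess of members over bottom cells differed between kinds of library, by an extra term of the same edgeR fit that was added after the data were seen and has 2 libraries an arm. Between irradiated and sham libraries 4 of 8150 genes (0.0491%) passed the adjusted threshold, and 312 had an unadjusted p under 0.05. That is less than the share of 0.05 of all genes expected with no difference at all. The log2 excess was lower in irradiated than in sham libraries by -0.93 for Ccl3 (SE 0.13), -1.24 for Ccl4 (SE 0.16), -2.26 for the metallothionein gene Mt2 (SE 0.31) and -2.93 for the chemokine gene Ccl5 (SE 0.27). For Ccl5, 1 cell held 78.9% of the UMIs of irradiated and 71.9% of those of sham members at 6 h, and at 1 week the sham library had none in either class.

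Between 1 week and 6 h libraries 7 genes (0.0859%) passed, and 487 had an unadjusted p under 0.05, not far above the share of 0.05 expected with no difference. The excess was lower at 1 week by -1.02 for Klf2 (SE 0.18), -0.48 for Jund (SE 0.092), -0.73 for the lysozyme gene Lyz2 (SE 0.14) and -1.81 for Tagln2, an actin-binding protein gene (SE 0.35). It was also lower for the proliferation-linked genes Stmn1 (-1.76, SE 0.32), H2afx (-2.13, SE 0.40) and Top2a (-6.47, SE 1.0). All 13 Top2a UMIs of irradiated members at 6 h came from 1 cell. Time, age and library cannot be told apart here. The pooled limits also gave the classes unlike score medians at the 2 times, and their part in these differences was not tested.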

How the results depend on the processing

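The counts of genes higher and lower in members (467 and 206) were 186 and 44 with cells thinned to 1000 UMIs, 250 and 64 with DESeq2, and 120 and 9 without the library block. Without a filter on low counts 315 were lower. Leaving out 1 library at a time gave 298 to 474 higher and 92 to 215 lower genes. For irradiated against sham members, the higher and lower counts at 6 h were 119 and 104 after thinning, 998 and 939 from 20 UMIs, and 87 and 75 from 200 UMIs. At 1 week they were 83 and 101 after thinning, 590 and 636 from 20 UMIs, and 26 and 30 from 200 UMIs. The cause of these shifts was not tested. Of the values for the 25 named genes under the alternatives, 347 kept their direction and side of the threshold and 44 lost the call. Named genes without a value under an alternative are not in these counts. After thinning, 16 of the 25 kept the call, 1 lost it and the rest had no value. Among the 15 higher genes only Ccl2 and Ccl4 lost the call, without the library block. Each of the 10 lower genes lost it in at least 1 alternative. Of the list medians, 286 moved by less than the spread between libraries and 34 by more. Members and bottom cells of each library were already paired in the main test by its library block. Irradiated and sham members were not tested against each other. No paired analysis was possible because, within a time, irradiated and sham have 1 library each.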
